A study of Arabidopsis thaliana with 4 samples.

Results

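Isolated high tiles are single array tiles whose log ratio between DNA immunoprecipitated for trimethylated histone H3 lysine 36 (H3K36me3) and input DNA stood above that of both neighbouring tiles. They were chosen by the measured ratio itself. A member had a mean of both replicates more than 1 above the array median, and the identifiers directly before and after it both had a value and a mean of 1 or less. The tiles of plate sets TA, TB and TC, from plate TA01 to TC30, were ordered by set, plate, row and column of the well, and the order ran across plate ends. This gave 329 members among 5930 tiles above 1 (5.55%) and among 21273 tiles with a value on those plates (1.55%). Of the other tiles above 1, called high tiles here, 5591 had a high neighbour. The remaining 10 had no high neighbour but lay beside an identifier without a value, so the rule could not place them.

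All samples came from whole, untreated Col-0 seedlings of Arabidopsis thaliana, labelled as 10 days old and grown in liquid medium, so cell types are mixed. Chromatin was immunoprecipitated with an antibody to H3K36me3, and the ChIP DNA and its input were labelled with different dyes and hybridised together. Replicates 1 and 2 are the extract pairs that the labels number I and II, each on 2 arrays with the dyes exchanged (n = 2). Within a pair the arrays are identical at every probe, so each pair was counted once, and the labels do not say whether the pairs came from separate plants.

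H3K36me3 is laid down by SET-domain methyltransferases that travel with elongating RNA polymerase II. In Arabidopsis the chief enzyme is SDG8. The mark is known from the bodies of transcribed genes, and it is usually found over stretches of chromatin rather than at single points. A tile that stands alone between low tiles is therefore set here beside runs of consecutive high tiles. The sources used here do not give the numerator of the ratio or the base of its logarithm. High and low describe the ratio as deposited, relative to the array median, and are not a direction of the mark. The identifiers are not paired with genes, coordinates or sequences in the tables used here, so no member is placed in the genome and none is given a gene. The number of arrays limits the precision.

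The members lay mostly near the lower end of the high range. Their ratios ran from 0.91 to 3.37 in replicate 1, with a median of 1.57, and from 0.64 to 2.91 in replicate 2, with a median of 1.37. The mean of both replicates had a median of 1.46 over the members, against 1.99 over the 5591 high tiles in runs. Of the members, 52.3% had a mean between 1 and 1.5, against 24.6% of the high tiles in runs. At the other end, 20 members (6.08%) exceeded 2.5, against 19.9% of the tiles in runs. The rule fixes the lower bound of 1 for both kinds of tile, so these levels are a description with no test. It asks for low neighbours of members only. Since neighbouring tiles correlate, the lower levels of members may follow in part from the rule, which was not tested. The limma test against the array median called all 329 members above it, where 38.9% of all 21685 probes with a value were called. The test reads the mean that chose the members, so nothing is read from this count. Its standard error for a member's mean ran from 0.138 to 0.221, with a median of 0.140. This error draws mostly on the spread pooled over all probes, so it understates the replicate difference of the most discordant members.

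The member with the highest ratio was TA68F11, with 3.37 in replicate 1 and 2.88 in replicate 2. Its neighbours in the identifier order had means of 0.18 and -0.76. On plate TA68 the ratios did not follow the identifiers as on other plates, so these neighbours may not be adjacent tiles. TC09A09 followed, with 3.04 and 2.91 in replicates 1 and 2, between neighbours of 0.82 and 0.84. Both replicates put these 2 tiles far above the threshold. TA88C11 had 2.997 and 2.90, but its neighbours lay at 0.996 and 0.92, just under the threshold, and in replicate 1 alone the tile before it was above 1. TB04C05 had 3.08 and 2.802 between neighbours of 0.60 and 0.10. TB03G01 had 3.04 and 2.83 between 0.86 and 0.04. In these tiles 1 neighbour was raised and the other lay near the array median. TB01A06 had 3.12 and 2.74, with 0.83 on the raised side, where replicate 2 alone gave 1.17. TA68D03 had 3.002 and 2.82 between -0.49 and 0.09. TB46F01 had 2.94 and 2.645 between 0.07 and 0.76. All 8 highest members were thus at 2.645 or more in both replicates, while their flanks ranged from below the array median to just under the threshold.

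At the threshold, TA33C10 (1.27 and 0.73 in replicates 1 and 2, mean 1.001) and TB94A02 (1.18 and 0.82, mean 1.003) were the members closest to 1. The tiles closest below it with both neighbours at 1 or less were TB18C10 (1.15 and 0.85, mean 0.997) and TA15G08 (1.10 and 0.90, mean 0.997). Only the third decimal of the mean separated these 4 tiles, all of which were above 1 in replicate 1 and below it in replicate 2.

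**Figure D1:**
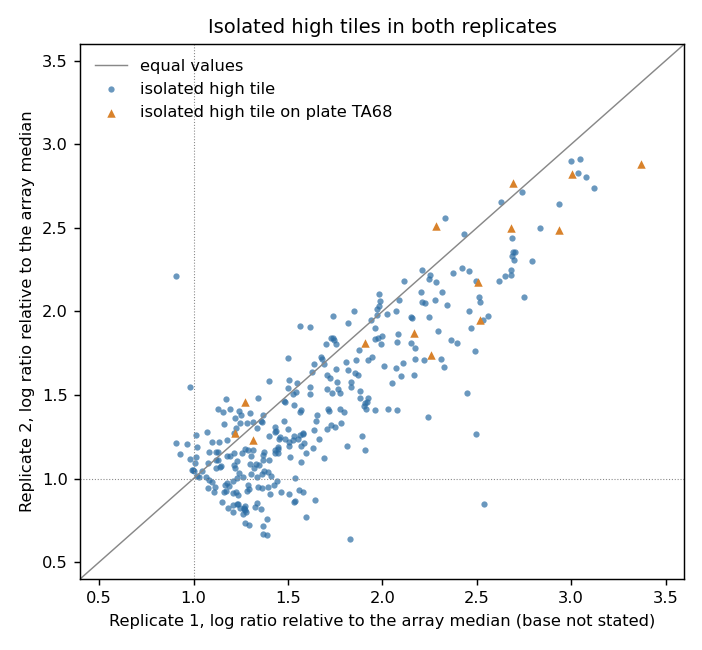
Each point is an isolated high tile, with its log ratio relative to the array median in replicate 1 (horizontal axis) and replicate 2 (vertical axis). The line marks equal values, the dotted lines mark 1, and triangles are the 14 members on plate TA68; 258 of the 329 members lie below the line.

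Most members had the higher ratio in replicate 1. Replicate 1 was the higher in 258 of 329 members (78.4%), with a median difference of 0.23 between replicate 1 and replicate 2. Among the high tiles in runs replicate 1 was the higher in 75.6%, with a median of 0.17, and over all measured tiles in 55.5%, with 0.04. The rule did not use this difference. It was larger in members at each level, with medians of 0.22 against 0.16 between means of 1 and 1.5, 0.22 against 0.15 up to 2, 0.21 against 0.14 up to 2.5, and 0.28 against 0.25 above that, for members and tiles in runs. Regardless of sign, the difference had a median of 0.25 in members and 0.21 in runs. With 2 replicates and neighbouring tiles that are not independent, the gap between members and runs was not tested. Over all probes replicate 1 had the wider spread, with a standard deviation of 1.15 against 1.04 in replicate 2. Centring on the median leaves this spread as it is, and its part in the higher ratios of replicate 1 was not tested.

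A difference above 1 between replicates was found in 4 members (1.22%), against 14 of the 5591 tiles in runs (0.25%). TB30B02 had 2.54 in replicate 1 and 0.85 in replicate 2. TB40E11 went the other way, with 0.91 and 2.21, and both of its neighbours lay below 0 in both replicates. TB30D06 had 2.495 and 1.27, and TB44D12 had 1.83 and 0.64. In each of these 4 tiles the ratio stood above both neighbours in both replicates, but its height differed by more than 1.

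Read from 1 replicate alone, the same rule found 362 tiles in replicate 1 and 343 in replicate 2. The lists shared 208 tiles, which is 57.5% of the replicate 1 list and 60.6% of the replicate 2 list. A tile isolated in both replicates is also isolated in their mean, so all 208 were members by the rule. Thus 63.2% of members were isolated in both replicates, and 10 members were isolated in neither. The 2 replicates, which differ in spread over all probes, lost members in different ways. Of the 58 members not isolated in replicate 1, 50 were above 1 themselves but had a neighbour above 1, and 8 were not above 1. Of the 73 not isolated in replicate 2, 18 had a neighbour above 1, and 55 were not above 1 themselves. Being above 1 in both replicates held for 80.9% of members and for 93.3% of tiles in runs. At means between 1 and 1.5 the shares were 64.5% and 72.9%, and above 2 all tiles of both kinds were.

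The tiles beside a member were usually not at the array median, and neither were those beside runs. Their median was 0.37 beside members, 0.35 beside runs of 2, 0.31 beside runs of 3 to 4 and 0.41 beside longer runs. The higher of a member's 2 neighbours had a median of 0.66, and the lower had 0.11. In 215 members (65.3%) at least 1 neighbour was above 0.5, and in 136 (41.3%) above 0.75. Both neighbours were at or below the array median in 27 members (8.21%), or 21 without plate TA68. The drop from a member to its higher neighbour had a median of 0.97, with 1.004 in replicate 1 and 0.90 in replicate 2. It ran from 0.03 to 2.95. The rule makes it positive in the mean and favours this in single replicates, where it was positive in both in 318 of 329 members. The neighbour before the member was the higher in 145 members (44.1%) and the neighbour after it in the others. The isolated tiles thus ranged from steep single points to small crests on a raised stretch.

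A drop of more than 2 was found in 25 members, of which 11 were on plate TA68 and 14 elsewhere. The 5 largest drops were 2.95 at TA68F11, 2.83 at TA68D03, 2.63 at TA77H01, 2.56 at TA68E07 and 2.47 at TA30C09. TA77H01 had 2.83 in replicate 1 and 2.497 in replicate 2, between neighbours of 0.03 and -0.15. TA30C09 had 2.25 and 2.19 between -0.25 and -0.43, and the tile 2 identifiers after it was high again, at 2.75. Outside TA68 these were the largest drops, each from a high tile to flanks near or under the array median. At the small end, 27 members had a drop under 0.25.

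Plate TA68 differed from the others in how its ratios followed the identifiers. All 14 of its high tiles were isolated, the most on any plate, and the next were 8 members on each of TB60 (of 35 high tiles) and TA79 (of 19). The members on TA68 were also higher, with a median mean of 2.29 and a median drop of 2.16. On the 180 other plates with at least 10 high tiles, the ratio of a tile correlated most with that of the next identifier among steps of 1 to 24, with a median r of 0.67 and a lowest value of 0.41, on TB60. On TA68, which has 94 tiles with a value, r was -0.17 for the next identifier and 0.56 for identifiers 8 apart. Both replicates showed this, with -0.18 and 0.53 in replicate 1 and -0.14 and 0.58 in replicate 2. At a step of 8 the other plates had a median r of 0.02. TA26 had an r as high there, at 0.57, but its r for the next identifier was 0.86. These correlations run over tiles of the same arrays and are a description.

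**Figure D2:**
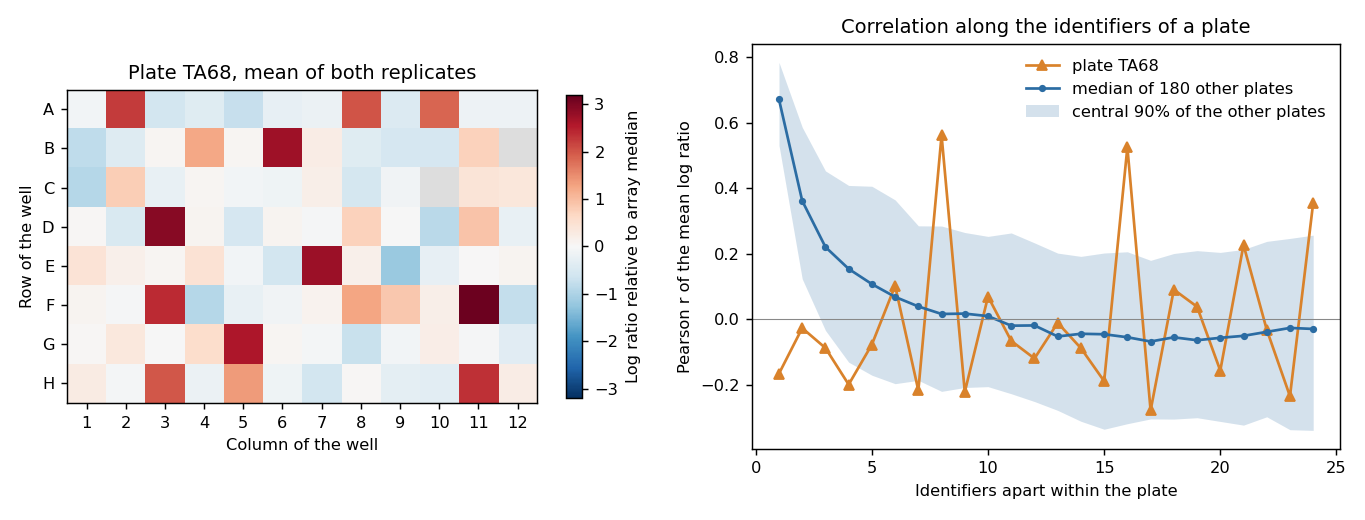
Left, mean log ratio relative to the array median in each well of plate TA68, by row and column of the well, with wells without a value in grey. Right, Pearson r between tiles a given number of identifiers apart, for TA68 (triangles) and for 180 other plates (median, with the band from the percentile 5 to the percentile 95); TA68 peaks at 8 and 16 identifiers apart and the other plates at 1.

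Read in steps of 8, the identifiers of TA68 gave runs of high tiles. In this reading, chosen after the values were seen, 3 of its 14 members stayed isolated. TA68H05, TA68A02, TA68A10 and TA68B06 became a run of 4, with means of 1.36, 2.23, 1.86 and 2.71. TA68E07, TA68F03 and TA68F11 became a run of 3, with 2.73, 2.40 and 3.13. TA68H03, TA68H11, TA68A08 and TA68B04 also followed each other, with 2.00, 2.34, 2.02 and 1.245, and the next place held no value. TA68D03, TA68G05 and TA68F08 remained alone, with 2.91, 2.59 and 1.27. The correlation of tiles next to each other in this reading was 0.60. These pairs are largely those 8 identifiers apart, so this value and the runs restate the correlation at a step of 8. The identifiers of TA68 may be listed in another order than those of the other plates, which was not tested. If so, the neighbours and drops given for its 14 members, TA68F11, TA68D03 and TA68E07 among them, are not those of adjacent tiles. Why TA68 differs was not tested. Without its tiles there were 315 members among 5916 high tiles (5.32%).

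Isolated tiles made up 19.4% of all bounded runs. Counting a member as a run of 1, there were 1693 runs of high tiles with a measured tile at 1 or less on both sides, and the longest held 22 tiles. Members numbered 329, against 428 runs of 2 tiles, 529 of 3 to 4 and 407 of 5 or more. The highest tile of a run had a median of 1.46 in members (1.41 without TA68), 2.22 in runs of 2, 2.49 in runs of 3 to 4 and 2.71 in runs of 5 or more. It exceeded 2 in 20.1% of members, 63.8% of runs of 2, 85.8% of runs of 3 to 4 and 98.0% of longer runs. A longer run offers more tiles for its highest value, so the order of these medians follows in part from how they are taken.

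**Figure D3:**
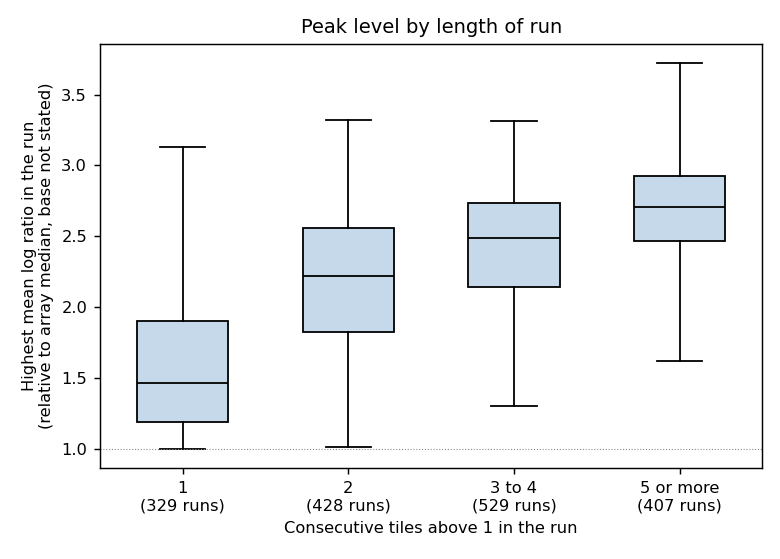
Highest mean log ratio, relative to the array median, in runs of 1 (the isolated tiles), 2, 3 to 4 and 5 or more consecutive tiles above 1. Boxes span the quartiles, the line is the median, and whiskers reach the lowest and highest run; medians are 1.46, 2.22, 2.49 and 2.71.

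Beyond the neighbours, which the rule fixed at 1 or less, the median ratio around members was near that around runs at 2 identifiers away and lower than around runs from 4 to 6 away. At 2 identifiers from a member the median was 0.10 in replicate 1 and 0.08 in replicate 2, and 20.9% of those tiles were high. At the same distance outward from the ends of runs the share was 22.1% for runs of 2, 21.4% for runs of 3 to 4 and 24.4% for longer runs. From 4 to 6 identifiers away, between 30.5% and 32.7% of tiles around members were high, against 27.9% of all measured tiles. Around runs the share was 34.1% to 35.4% for runs of 2, 35.5% to 36.5% for runs of 3 to 4 and 37.5% to 39.04% for longer runs. The median of the mean ratio at 4 identifiers was 0.15 around members (0.20 without TA68), against 0.26 around runs of 2, 0.29 around runs of 3 to 4 and 0.45 around longer runs. These differences were not tested. Without TA68 the share of high tiles 4 to 6 identifiers from members was 31.3% to 34.1%, its upper end level with the lowest share around runs of 2. The distance from a member's side to the next high tile had a median of 5 identifiers, as had the distance from the ends of runs in all 3 length classes.

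**Figure D4:**
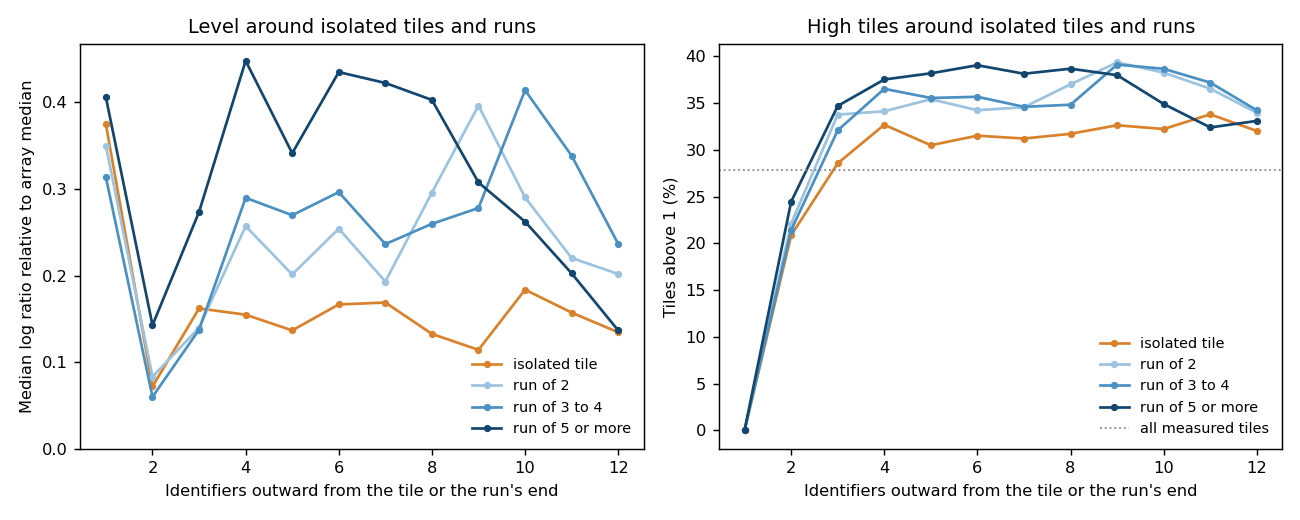
Median mean log ratio (left) and share of tiles above 1 (right) by number of identifiers outward from an isolated tile or from the end of a run of 2, 3 to 4 or 5 or more. The share is 0 at a distance of 1 by the rule, and at 2 it is 20.9% around isolated tiles and 21.4% to 24.4% around runs; the dotted line is the 27.9% of all measured tiles.

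Part of the members had another high tile 2 identifiers away. Of the tiles 2 identifiers from a member 20.9% were high, against 27.9% of all measured tiles. At that distance from the ends of runs the share was 21.4% to 24.4%. The tile between is at 1 or less by the rule, and neighbouring tiles correlate, so the share of all tiles is not a like baseline. At 3 identifiers from a member the share was 28.5%, and at 4 it was 32.7%. With both tiles 2 identifiers away measured in 328 members, 107 had a high tile on 1 side at that distance, 15 had high tiles on both sides and 206 had none. In 122 members (37.1%) the nearest high tile was thus separated by a single lower tile, and in 63 (19.1%) by 2. There were 20 series in which members alternated with single lower tiles, and they held 42 members. The longest series held 3. TB36A09, TB36A11 and TB36B01 had means of 1.61, 1.21 and 1.24, with -0.26 and 0.30 between them. TB93H10, TB93H12 and TB94A02 had 1.14, 2.502 and 1.003, with 0.91 and 0.58 between them. The ratio between the members of the first series fell to about the array median, and in the second it stayed well above.

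A smaller number stood far from any other high tile. The nearest was more than 10 identifiers away in 30 members (9.12%) and more than 20 away in 9. TA42E03 was the farthest, with 116 identifiers to the nearest high tile. Its ratio was 1.28 in replicate 1 and 0.92 in replicate 2, and the tile before it had 0.62. TA28H10 stood 48 identifiers from the nearest high tile, with 2.37 and 2.23. TA48G05 stood 43 away, with 1.69 in both replicates and neighbours of -0.45 and -0.62. TA52A07 stood 42 away, with 1.18 and 1.13 between -0.73 and -0.36. TB38A01 stood 28 away, with 1.23 and 1.003. Of these 5, TA28H10, TA48G05 and TA52A07 had nearly equal values in both replicates, and TA48G05 and TA52A07 stood between tiles below the array median.

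Most plates held a member. Of 226 plates, 158 held at least 1 member, 76 held exactly 1 and 13 held 5 or more. Set TA held 138 members, 7.13% of its high tiles, or 124 and 6.45% without TA68. Set TB held 160 (4.60% of its high tiles) and set TC 31 (6.03%). As a share of all tiles with a value, members made up 1.49% in TA, 1.67% in TB and 1.28% in TC. The mean of replicates 1 and 2 over the members was 1.73 and 1.49 in TA, 1.67 and 1.45 in TB, and 1.73 and 1.51 in TC. The sets differed by less than the gap between the replicates.

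A larger part of the high tiles stood alone on plates with few high tiles than on plates with many. The rule asks that neither neighbour is high, which is met less easily where more tiles are high. The order of the shares thus follows in part from the rule, and how large that part is was not tested. On 25 plates with 1 to 9 high tiles, 18 of 123 (14.6%) were isolated. The share was 12.4% on plates with 10 to 19 high tiles (9.69% without TA68), 5.45% with 20 to 29 and 6.69% with 30 to 39. On the 51 plates with 40 or more it was 3.07%. This trend has a reversal between the third and the fourth class.

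**Figure D5:**
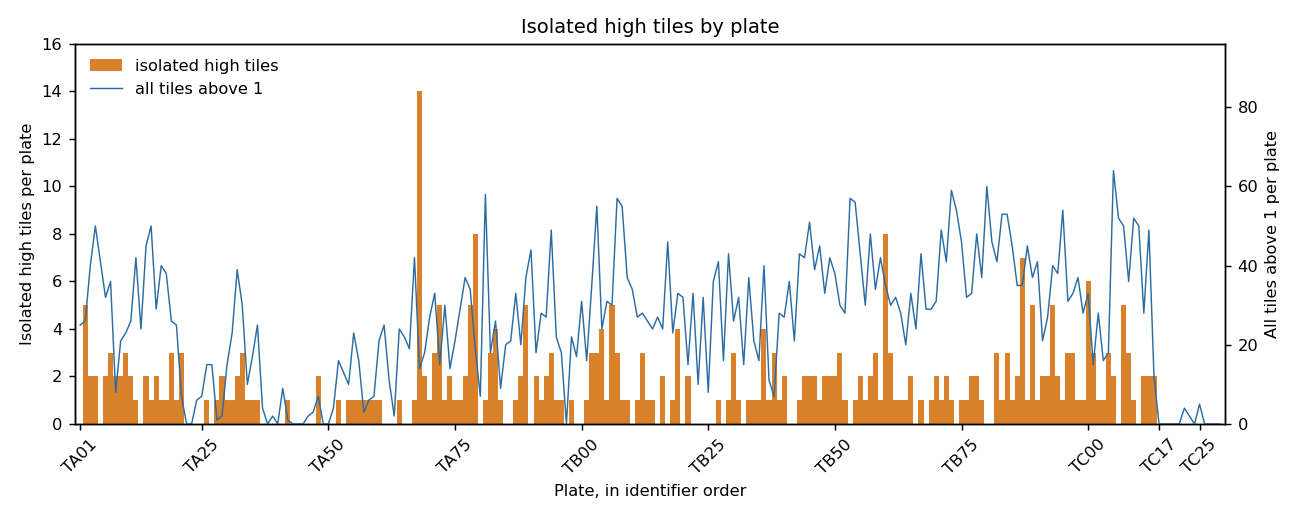
Isolated high tiles per plate (bars, left axis) and all tiles above 1 per plate (line, right axis), with plates in identifier order. TA68 has the tallest bar, at 14 members, and stretches of plates with few high tiles hold few members or none.

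The plates with the fewest high tiles held 5 members. Fewer than 5 high tiles were found on 31 plates with at least 60 values, which together held 2773 tiles, 28 of them high. No tile was high on 20 of these plates. TA28H10, at 2.37 and 2.23 in replicates 1 and 2, was the highest of the 5 members, and the only high tile of its plate. TA29G11 had 1.67 and 1.24 between -0.45 and 0.42. TA29E07 had 1.01 and 1.09 between -0.42 and -0.80. The well identifiers directly before TA29G11 and on both sides of TA29E07 are not among those analysed here, so their neighbours in the order are 2 wells away there, the only members for which this holds. TA57H01 had 1.14 and 1.07, and 2 identifiers after it the ratio was 2.09. TA42E03 completed the list, and was the only high tile of plate TA42.

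Shares by well position varied more between rows than between columns. Outside TA68, the share of high tiles that were isolated ran from 4.18% in column 3 to 6.60% in column 1. By row it was lowest in row D, with 26 of 798 (3.26%), and highest in row E, with 48 of 695 (6.91%). Row H had 3.76% and row F 4.31%, and the other rows lay between 5.91% and 6.46%. The identifiers run along rows, so a row collects consecutive tiles, and these shares were not tested.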

How the data were processed

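H3K36me3 ChIP and input DNA were compared on 4 two-colour arrays. The authors deposited 1 log ratio per probe and array, treated here as a score, since its base, direction, normalization and genome build are unstated in these sources. The dye-swapped arrays of each pair were identical over 21685 probes (another 115 identifiers had no value), so a pair was 1 replicate. Replicates were centred on their medians over all probes (-1.22 and -1.10 as deposited) and averaged. Any p-value reflects the spread between 2 extract pairs, possibly technical only. That spread is mostly the one pooled over all probes by eBayes (23.1 prior degrees of freedom against 1 residual), not a probe's own.

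Probes were tested against the array median with limma 3.58.1 in R 4.3.3 (lmFit, eBayes, two-sided, Benjamini-Hochberg over all 21685 probes, threshold 0.05), which, like the rule, was tested on simulated data. Other values came from pandas 2.3.3 and numpy 2.4.6 in Python 3.11.15 and carry no test. The members and lists were chosen with earlier results of these data known.

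Named tiles were the 8 members with the highest mean, the 5 with the largest drop to the higher neighbour, the 5 farthest from another high tile, the 4 with the largest replicate difference, 2 on each side of the threshold, members on plates with fewer than 5 high tiles and at least 60 values, and the longest alternating series. Other tiles of TA68, and plates TA26, TA79 and TB60, were named after their values were seen. Alternatives were other thresholds, centring, scaling, plate ends, single replicates and, added after seeing the data, TA68 left out or read in steps of 8.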

Additional observations from a re-analysis of the deposited data

How the results depend on the processing

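The number of members was within 1.5 times 329 at a threshold of 0.75 and at the value midway between 1 and 1.5, under quantile normalization, with neighbours taken within a plate only, in single replicates (343 and 362), without plate TA68 (315) and with TA68 read in steps of 8 (318). It was 503 at a threshold of 1.5, 691 without centring and 114 with neighbours at 0.5 or less. Without centring the medians stay at -1.22 and -1.10, so the threshold of 1 is a stricter cut, with 2238 high tiles against 5930. Which tiles were members depended more on the threshold and on centring. At 0.75, 193 of the 310 tiles were shared with the list at 1, and at 1.5, 157 of the 503. Without centring, 47 of the 691 tiles were shared. The share of high tiles that were isolated, 5.55% at a threshold of 1, was 4.61% at 0.75, 7.40% midway between 1 and 1.5, 11.5% at 1.5, 30.9% without centring, 5.32% without TA68 and 5.36% with TA68 reread, and 5.84% to 6.07% in single replicates. The median drop, 0.97, was 0.87 at 0.75, 1.02 midway, 0.92 at 1.5, 0.74 without centring, 0.95 both without TA68 and with it reread, and 0.94 to 0.97 in single replicates. The share of members with a high tile 2 identifiers away, 37.2%, was 19.4% without centring (the cause was not tested) and 32.4% to 40.3% otherwise. It was 33.3% in replicate 2 alone and 40.3% in replicate 1 alone. The median size of the replicate difference ran from 0.18 (no centring) to 0.25, and the share isolated in both replicates from 61.6% to 64.5%. Probes called above the array median numbered 4542 without centring, against 8445, and 6685 to 8562 otherwise. No paired analysis was possible because there is a single group. Leaving out a replicate leaves limma no residual degree of freedom, so its count has no such value.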

Other observations

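The opposite pattern, a single tile at 1 or less between 2 high tiles, was found 376 times. The ratio of these gap tiles had a median of 0.64, 36.4% lay between 0.75 and 1, and 36 (9.57%) were at or below the array median, the lowest at -1.22. How far they lay below the high tiles beside them was not measured. A member bordered 115 of the gaps.

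Sets PD and TD lay outside the rule. The same rule applied to them found 5 isolated tiles among 93 high tiles in PD (5.38%, 316 tiles with a value) and 9 among 48 in TD (18.8%, a single plate of 96 tiles). In TD the ratio correlated with r = 0.61 for the next identifier and 0.36 for identifiers 8 apart, so the plate did not show the pattern of TA68.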
